A study of Mus musculus with 21 samples.

Results

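The genes described are 9 mouse chemokines and chemokine receptors that act in the recruitment of T cells and their partners: the ligands Cxcl9, Cxcl10, Cxcl11, Cxcl16, Ccl5 and Xcl1, and the receptors Cxcr3, Cxcr6 and Xcr1. They were taken from a list of names rather than by a threshold on their values, and all 9 were found among the 22180 genes with a probe set assigned to a single symbol. Each had 1 such probe set.

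CXCL9, CXCL10 and CXCL11 are small secreted proteins that many cell types make in response to interferon-gamma, and all of them bind CXCR3 on activated T cells and natural killer (NK) cells. CXCL16 is made as a membrane protein that ADAM10 and ADAM17 can release, and its receptor CXCR6 is found on effector and tissue-resident T cells and on NK cells. CCL5 attracts T cells, monocytes and other leukocytes through receptors that include CCR1 and CCR3, while XCL1 is released mainly by activated CD8+ T cells and NK cells and binds XCR1, a receptor of the dendritic cells that cross-present antigen.

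RNA was profiled on 21 Affymetrix whole-transcript arrays from Py8119 and Py117, mammary carcinoma lines taken from MMTV-PyMT mice, in which a mammary promoter drives the polyomavirus middle T oncogene. Mixed tumours (5 arrays) grew from a 1:1 implant of both lines, Py8119 tumours (5) and Py117 tumours (5) from a single line, and Py8119 cultures (3) and Py117 cultures (3) were grown in Ham's F12K medium with serum. Each tumour started from 1000000 cells in Matrigel in mammary fat pad 4, and no culture or tumour was treated or irradiated. Tumours were taken on the day on which radiation would usually be given, and the labels used here give neither the strain nor the age of the host mice. Each line stands for itself, so a difference between them is a difference between 2 lines and not between kinds of tumour.

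Values are the deposited log2 signals, in which a difference of 1 is a doubling. A level is compared only between arrays for the same gene, since probe sets differ in brightness. Array medians lay between 5.24 and 5.53, and arrays of a group correlated over all genes with r between 0.969 and 0.994. As a measure of background, 1394 olfactory and vomeronasal receptor genes had a 95th percentile of 5.31, and a gene whose arrays all lay below that is treated as not above background. The epithelial marker Epcam averaged 7.74 ± 0.42 in mixed tumours, 5.13 ± 0.45 in Py8119 tumours and 10.27 ± 0.27 in Py117 tumours (SD, n = 5 each), and 5.07 ± 0.21 in Py8119 cultures and 10.58 ± 0.19 in Py117 cultures (SD, n = 3 each), so the Py8119 groups were below background on average for it. T cell markers had a mean over 15 genes between 5.14 and 5.35 in the 6 cultures and above 5.45 in each of the 15 tumours. Of these 15 genes, 7 had a mean above background in Py8119 cultures and 9 in Py117 cultures. Because tumours were homogenized whole, fewer cells of a type and less RNA per cell cannot be told apart.

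Promoters of 6 of the 9 genes were given in the RefSeq table for build GRCm38.p6, and 3 are shown because Cxcl9 and Cxcl10 moved most between tumours while Xcl1 followed another pattern. Each run is the 250 bases before the transcription start, read 5′ to 3′ on the gene's own strand, which is the minus strand for all 3. Cxcl9 is at chr5:92328080-92328329, Cxcl10 at chr5:92348890-92349139 and Xcl1 at chr1:164935523-164935772. Capitals mark matches, on either strand, to GAAANNGAA, a short form of the interferon-stimulated response element, and to GGGNNTTCC or GGGNNNTTC, forms that resemble NF-kappaB sites.
Cxcl9: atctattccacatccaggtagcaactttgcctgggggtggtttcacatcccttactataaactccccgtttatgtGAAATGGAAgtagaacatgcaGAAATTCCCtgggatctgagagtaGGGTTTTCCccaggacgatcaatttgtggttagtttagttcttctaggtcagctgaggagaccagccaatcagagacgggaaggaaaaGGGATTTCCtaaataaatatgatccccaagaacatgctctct
Cxcl10: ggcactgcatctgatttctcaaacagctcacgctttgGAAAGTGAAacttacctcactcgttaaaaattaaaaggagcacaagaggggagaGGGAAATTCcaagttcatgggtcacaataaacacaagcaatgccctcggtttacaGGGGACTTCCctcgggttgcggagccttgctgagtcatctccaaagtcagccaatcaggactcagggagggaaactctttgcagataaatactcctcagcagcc
Xcl1: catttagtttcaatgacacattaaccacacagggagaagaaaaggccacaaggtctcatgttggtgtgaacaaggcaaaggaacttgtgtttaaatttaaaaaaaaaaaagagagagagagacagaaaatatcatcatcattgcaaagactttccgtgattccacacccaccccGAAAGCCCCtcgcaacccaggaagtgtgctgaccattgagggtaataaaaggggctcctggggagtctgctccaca

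The interferon form stood 175 to 167 bases before the start in Cxcl9 and 213 to 205 bases before it in Cxcl10, and 7.13% of the 32851 promoters in the table hold it in the same window. GGGNNTTCC matched in Cxcl9 at 130 to 122 and at 42 to 34 bases before the start and in Cxcl10 at 103 to 95, against 4.98% of all promoters. GGGNNNTTC matched in Cxcl9, Cxcl10, Cxcr3 and Xcl1, against 11.8% of all promoters, and in Cxcl10 its match from 104 to 96 overlaps the one to GGGNNTTCC. The gamma-activated sequence TTCNNNGAA, held by 7.02% of all promoters, matched in none of the 6, and Cxcr6 and Xcr1 held none of the motifs. These are matches of letters and describe the sequences only.

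In culture the lines differed for 3 of the 9 genes, and in opposite directions. Py8119 cells had more Ccl5 and Cxcl10 RNA than Py117 cells, and far less Cxcl16 RNA. A gene was called at a limma p under 0.05 after Benjamini-Hochberg adjustment over all 22180 genes, and each difference is given on the log2 scale ± its standard error (SE). By that rule 2 of the 9 genes were higher, where 14.5% of all genes were, and 1 was lower, where 12.3% of all genes were.

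Ccl5 (probe set 17266946) read 9.54, 9.19 and 9.0 in Py8119 cultures, against 6.09, 6.32 and 6.52 in Py117 cultures. Every Py8119 culture was far above every Py117 culture, a difference of 2.93 ± 0.17 or 7.64-fold (adjusted p = 3.43e-05). Cxcl10 (probe set 17449718) read 8.09, 8.28 and 7.81 in Py8119 cultures, against 5.88, 6.12 and 5.92 in Py117 cultures. The cultures were again apart, by 2.08 ± 0.14 or 4.24-fold (adjusted p = 6.6e-05). Cxcl16 (probe set 17265268), the membrane-bound ligand of CXCR6, ran the other way and read 5.91, 5.33 and 5.86 in Py8119 cultures, against 9.88, 10.41 and 10.14 in Py117 cultures. It was lower in Py8119 by -4.44 ± 0.20, or 21.8-fold (adjusted p = 1.01e-05), and in Py8119 it lay just above background.

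The other 6 genes were not called between the cultures. Cxcl9 averaged 5.63 ± 0.79 in Py8119 cultures and 6.00 ± 0.40 in Py117 cultures (SD, n = 3 each; difference -0.37 ± 0.39, 95% confidence interval -1.29 to 0.55), so cultured cells of either line gave a signal close to background. Cxcl11 was above background in each Py8119 culture and averaged 5.71 ± 0.11 there and 5.27 ± 0.24 in Py117 cultures; the groups did not overlap, but the difference of 0.45 ± 0.14 missed the threshold (adjusted p = 0.0563). Cxcr6 and Xcr1 were below background in every culture. The mean of Xcl1 was 5.10 ± 0.51 in Py8119 cultures and 5.34 ± 0.23 in Py117 cultures, around background. Cxcr3 averaged 5.82 ± 0.09 in Py8119 cultures and 6.03 ± 0.25 in Py117 cultures.

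**Figure D1:**
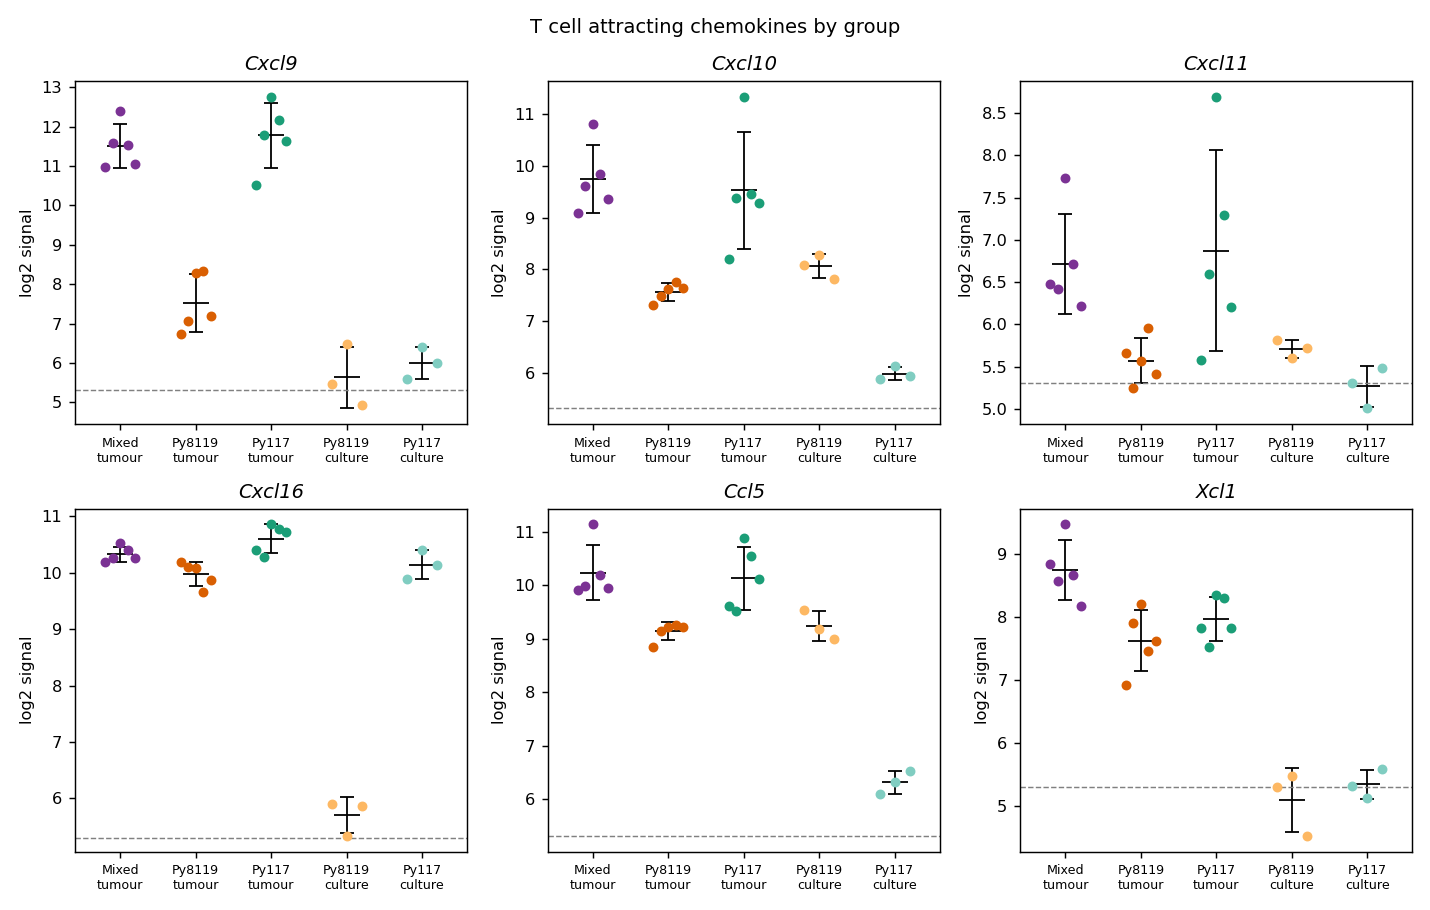
Log2 signal of the 6 ligand genes on each array (points, each panel with its own axis), by group, with the mean and SD as black bars and the background level of 5.31 as a dashed line. Ccl5 and Cxcl10 were higher in Py8119 than in Py117 cultures yet lower in Py8119 than in Py117 tumours, and for Cxcl9, Cxcl10 and Cxcl11 every mixed tumour lay within the range of the Py117 tumours.

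Between tumours of the single lines, 7 of the 9 genes were lower in Py8119 than in Py117 tumours and none was higher. All 3 CXCR3 ligands fell, with Cxcl9 by far the most, and so did Ccl5, Cxcl16 and the receptors Cxcr6 and Cxcr3. Of all genes, 16.5% were called lower in this comparison and 21% higher. The median difference over the 9 genes was -0.996, against 0.01 over all genes.

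Cxcl9 (probe set 17449710) read 6.73, 7.06, 8.29, 8.33 and 7.20 in Py8119 tumours, against 10.52, 11.78, 12.76, 12.18 and 11.64 in Py117 tumours. The highest Py8119 tumour stayed well below the lowest Py117 tumour. The difference was -4.25 ± 0.38, or 19.1-fold (adjusted p = 7.19e-08), and only 35 of the 22180 genes had a more negative difference. Leaving out any tumour kept it between -4.57 and -4.01.

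Cxcl10 read 7.31, 7.48, 7.62, 7.74 and 7.63 in Py8119 tumours, against 8.19, 9.38, 11.34, 9.45 and 9.28 in Py117 tumours. The groups did not overlap, and the Py117 tumours were spread much more widely (SD 1.13) than the Py8119 tumours (SD 0.17). The difference was -1.97 ± 0.41, or 3.92-fold (adjusted p = 0.000709). Cxcl11 (probe set 17449725), whose gene RefSeq lists as a transcribed pseudogene in the reference strain, read 5.66, 5.25, 5.57, 5.96 and 5.42 in Py8119 tumours, against 5.58, 6.60, 8.69, 7.29 and 6.21 in Py117 tumours. One Py117 tumour fell within the range of the Py8119 tumours, which were close to background, and the difference was -1.30 ± 0.42 (2.47-fold, adjusted p = 0.0190).

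Ccl5 read 8.84, 9.15, 9.22, 9.26 and 9.22 in Py8119 tumours, against 9.61, 9.52, 10.88, 10.55 and 10.12 in Py117 tumours. There was no overlap, and the difference was -0.996 ± 0.251 or 1.99-fold (adjusted p = 0.00376), opposite in sign to the one between the cultures. Cxcl16 read 10.19, 10.11, 10.08, 9.66 and 9.86 in Py8119 tumours, against 10.40, 10.27, 10.86, 10.77 and 10.72 in Py117 tumours. The groups were separate but near each other, with a difference of -0.62 ± 0.13 or 1.54-fold (adjusted p = 0.000555), where the cultures had differed 21.8-fold.

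Among the receptors, Cxcr6 (probe set 17523642) read 5.03, 4.50, 4.97, 4.79 and 4.70 in Py8119 tumours, against 5.70, 5.47, 5.84, 6.45 and 6.29 in Py117 tumours. Every Py8119 tumour was below background and every Py117 tumour above it, so the measured difference of -1.15 ± 0.18 (adjusted p = 4.31e-05) stands for a level at least 1.56-fold lower in Py8119 tumours, taking the background level as its ceiling there. Cxcr3 (probe set 17543625) averaged 5.98 ± 0.13 in Py8119 tumours and 6.40 ± 0.27 in Py117 tumours (SD, n = 5 each). The lowest Py117 tumour, the highest Py8119 tumours and a Py117 culture held the identical value of 6.06728. Why this value recurs was not tested, and it limits what the Cxcr3 spread and difference can show. The Cxcr3 difference was -0.42 ± 0.12, or 1.34-fold (adjusted p = 0.00864), and with the mean of adipocyte genes as a covariate it lost the call (adjusted p = 0.0707).

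Xcl1 and its receptor Xcr1 were not called between these tumours. Xcl1 (probe set 17229187) read 6.93, 7.91, 8.20, 7.47 and 7.62 in Py8119 tumours, against 7.83, 7.53, 8.36, 8.31 and 7.83 in Py117 tumours. The ranges overlapped over most of their length, and the difference was -0.34 ± 0.24 (95% confidence interval -0.85 to 0.16, adjusted p = 0.311). Xcr1 (probe set 17532564) averaged 5.28 ± 0.20 in Py8119 tumours and 5.60 ± 0.36 in Py117 tumours, close to background in both (difference -0.32 ± 0.15, adjusted p = 0.105).

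**Figure D2:**
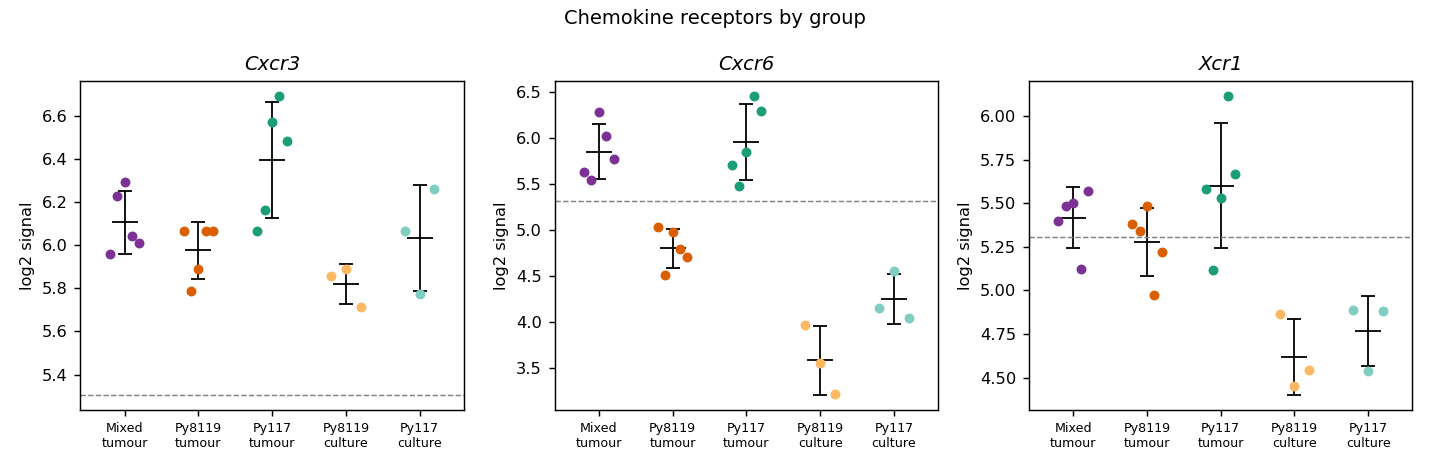
Log2 signal of the 3 receptor genes on each array (points, each panel with its own axis), by group, with the mean and SD as black bars and the background level of 5.31 as a dashed line. Cxcr6 was above the background level in every mixed and Py117 tumour and below it in every Py8119 tumour and every culture.

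Mixed tumours were grown from both lines, and for Cxcl9, Cxcl10, Cxcl11 and Cxcr6 every mixed tumour lay within the range of the Py117 tumours. Against Py117 tumours, Xcl1 was the 1 gene of the 9 called, and it was higher; among all genes 19.2% were called higher and 16.9% lower. Against Py8119 tumours, 5 of the 9 genes were higher (Cxcl9, Cxcl10, Cxcr6, Ccl5 and Xcl1) and none was lower, where 1.61% of all genes were higher. The Py117 and Py8119 tumours serve in more than 1 comparison, so the 3 tumour comparisons share arrays and are not separate evidence.

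Cxcl9 read 10.98, 11.58, 12.39, 11.54 and 11.05 in mixed tumours. These values lay inside the range of the Py117 tumours and above every Py8119 tumour. The mixed tumours exceeded the Py8119 tumours by 3.99 ± 0.38, or 15.9-fold (adjusted p = 5.44e-06), a difference that 3 of the 22180 genes surpassed. From the Py117 tumours they differed by -0.27 ± 0.38 (95% confidence interval -1.07 to 0.54, adjusted p = 0.631).

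Cxcl10 read 9.08, 9.61, 10.80, 9.85 and 9.35 in mixed tumours, again above every Py8119 tumour and within the Py117 range. It was 2.18 ± 0.41 or 4.53-fold higher than in Py8119 tumours (adjusted p = 0.00592), and 0.21 ± 0.41 from Py117 tumours (95% confidence interval -0.65 to 1.07). Cxcl11 read 6.48, 6.42, 7.73, 6.72 and 6.22 in mixed tumours. All of them were above all Py8119 tumours, but the limma difference of 1.14 ± 0.42 was not called (adjusted p = 0.232). The Py8119 minus Py117 difference of -1.30 had the same SE and was called, where 8299 genes were called against 394 here. Mixed minus Py8119 was called with array weights (adjusted p = 0.0311) or without Py117 tumour 3 (adjusted p = 0.0408).

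Ccl5 read 9.91, 9.99, 11.14, 10.20 and 9.96 in mixed tumours, and the lowest of them was above the highest Py8119 tumour. The difference of 1.10 ± 0.25 or 2.15-fold passed (adjusted p = 0.0268), but a trended robust prior ended the call (adjusted p = 0.0614), and so did leaving out a single tumour in 6 of the 15 cases, with adjusted p up to 0.0849. Those tumours were mixed 3 and 4 and Py8119 1, 2, 3 and 5. Cxcr6 read 5.63, 5.54, 6.28, 6.02 and 5.77 in mixed tumours, all above background. It was higher than in Py8119 tumours by 1.05 ± 0.18 (adjusted p = 0.00264), at least 1.46-fold with the Py8119 tumours taken at the background level.

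Xcl1 stood apart from the other ligands. It read 8.85, 8.58, 9.48, 8.67 and 8.17 in mixed tumours, and only the lowest of these fell within the ranges of the single-line tumours. It was 0.78 ± 0.24 or 1.71-fold higher than in Py117 tumours (adjusted p = 0.0164) and 1.12 ± 0.24 or 2.18-fold higher than in Py8119 tumours (adjusted p = 0.0173). Over all genes, 8 were called higher in mixed tumours than in both single-line groups, which is 0.0361% of those tested. The 7 others were Abcg3, Cd48, Creld2, Gm19585, Pik3cd, Sdf2l1 and Tec. They are named here because the count is small, and so after their values were seen.

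The Xcl1 calls had limits. Against Py117 tumours the call was lost with adipocyte genes as a covariate (0.65, adjusted p = 0.152) and without the 3 Py117 tumours in which those genes were high (0.80, adjusted p = 0.0686). Against Py8119 tumours it was lost without mixed tumour 3 (adjusted p = 0.0538) or without Py8119 tumour 1 (adjusted p = 0.0541).

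Cxcl16 read 10.20, 10.26, 10.53, 10.40 and 10.26 in mixed tumours, just above the highest Py8119 tumour and overlapping the lower Py117 tumours. Neither difference was called: 0.35 ± 0.13 from Py8119 tumours (adjusted p = 0.221) and -0.28 ± 0.13 from Py117 tumours (adjusted p = 0.0994). Cxcr3 averaged 6.11 ± 0.15 and Xcr1 5.42 ± 0.18 in mixed tumours (SD, n = 5), with no call in either comparison.

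**Figure D3:**
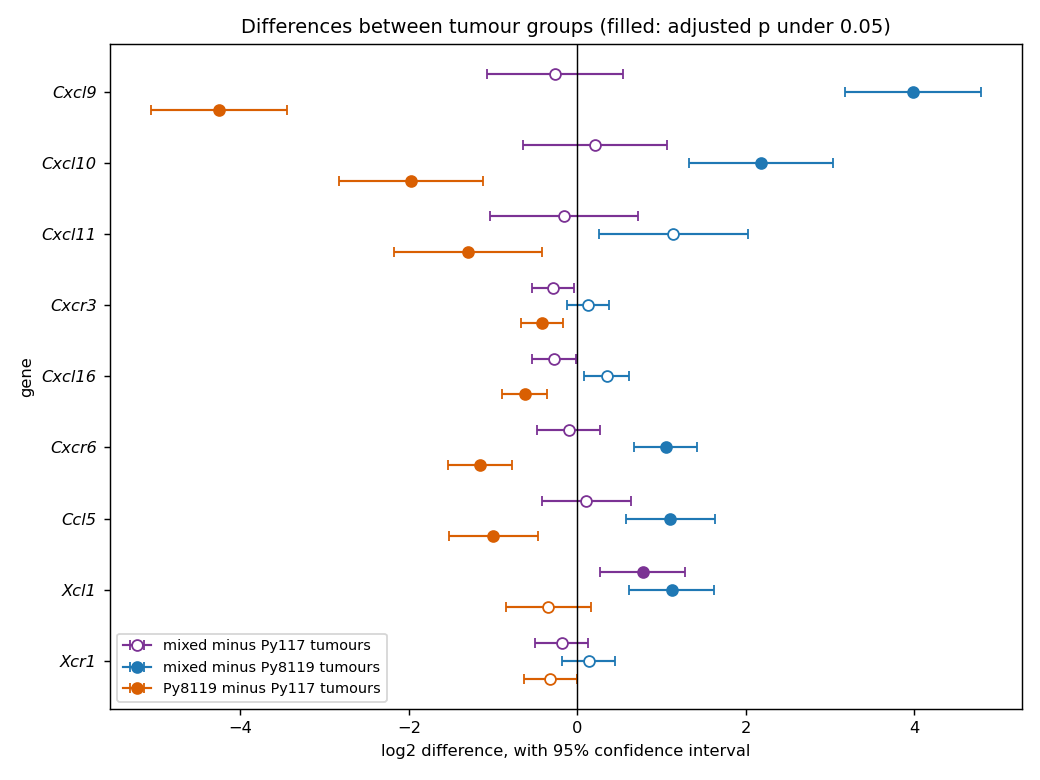
Log2 difference between tumour groups (points) with its 95% confidence interval (bars) for each of the 9 genes, in 3 colours for the 3 comparisons; filled points were called at an adjusted p under 0.05. Cxcl9, Cxcl10, Cxcl11, Cxcr6 and Ccl5 lay near 0 for mixed minus Py117 tumours and at similar sizes on opposite sides for the other comparisons, while Xcl1 was above 0 in both mixed comparisons.

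A mixed tumour can also be placed on a scale on which the mean of Py117 tumours is 0% and that of Py8119 tumours 100%, using linear signals. Over the 1953 genes that were called between single-line tumours with a log2 difference of at least 1, the median position was 86.4%, with quartiles at 77.6% and 93.7%, nearer the Py8119 end. Cxcl9 stood at 22.4% ± 36.1, Cxcl10 at 4.84% ± 63.1, Cxcr6 at 14.7% ± 35.5 and Cxcl11 at 40.5% ± 51.5 (SD, n = 5 mixed tumours each). On the log2 scale the positions were 6.29% for Cxcl9, -10.6% for Cxcl10, 8.93% for Cxcr6 and 12.3% for Cxcl11, against a median of 81.0% over the 1953 genes, so for Cxcl10 the sign turned. Members with a smaller difference between the single-line tumours, for which the scale is shorter, stood on the linear scale at 72.7% ± 32.0 for Cxcr3, 51.1% ± 22.2 for Cxcl16 and -12.9% ± 87.2 for Ccl5. The SDs are large, and on the linear scale the mean positions of Cxcl9, Cxcl10, Cxcr6 and Cxcl11 had between 10 and 38 of the 1953 genes below them. Positions are given as a description, since the same tumours set both the choice of genes and the ends of the scale.

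Set against their own cultures, Py8119 tumours had 5 of the 9 genes higher, where 16.3% of all genes were, and 1 lower, where 20.9% of all genes were. In Py117, 7 of the 9 were higher in tumours than in cultures, where 12.4% of all genes were. A tumour holds host cells that a culture lacks: macrophage genes, for example, had means over 12 genes between 9.73 and 10.56 in tumours and between 5.56 and 6.05 in cultures. Their part in these differences was not tested.

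Cxcl9 was 1.89 ± 0.43 or 3.71-fold higher in Py8119 tumours than in their cultures (adjusted p = 0.00615) and 5.78 ± 0.40 or 54.9-fold higher in Py117 tumours than in theirs (adjusted p = 2.57e-06). Cxcl10 was lower in Py8119 tumours than in cultures by -0.50 ± 0.13 (adjusted p = 0.0123) and higher in Py117 tumours by 3.55 ± 0.52 or 11.8-fold (adjusted p = 0.000419). The Py8119 call for Cxcl10 did not hold in a fit of all 21 arrays (adjusted p = 0.397) or without Py8119 culture 2 (adjusted p = 0.0503). With replicate numbers as a block, the Py8119 calls of Cxcl9 (1.73, adjusted p = 0.0754) and Cxcl10 (-0.59, adjusted p = 0.0503) were both lost.

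Ccl5 differed by -0.11 ± 0.14 between Py8119 tumours and cultures (95% confidence interval -0.42 to 0.21, adjusted p = 0.603), while in Py117 it was 3.82 ± 0.29 or 14.2-fold higher in tumours (adjusted p = 4.33e-06). Cxcl16 was 4.28 ± 0.16 or 19.5-fold higher in Py8119 tumours than in cultures (adjusted p = 5.43e-08). In Py117 its difference of 0.46 ± 0.17 missed the threshold (adjusted p = 0.0603) but passed under 5 other settings, with adjusted p between 0.0196 and 0.0400, and without Py117 culture 2 (0.0437) or Py117 tumour 2 (0.0318). For these 4 ligands the size of the step from culture to tumour depended on the line when that was tested directly, as the Py8119 step minus the Py117 step.

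This interaction was -3.89 ± 0.65 for Cxcl9 (adjusted p = 0.000503), -4.05 ± 0.59 for Cxcl10 (adjusted p = 0.000156), -3.93 ± 0.35 for Ccl5 (adjusted p = 8.65e-07) and 3.82 ± 0.24 for Cxcl16 (adjusted p = 3.49e-08). So 1 of the 9 genes had a higher interaction, against 7.50% of all genes, and 3 a lower one, against 5.99% of all genes. Cxcl11 missed the threshold (-1.75 ± 0.63, adjusted p = 0.0796), and its own rise in Py117 tumours over cultures (1.60 ± 0.55, at least 2.84-fold, adjusted p = 0.0477) was lost in 5 of the 8 fits without 1 array: those without any of the 3 Py117 cultures, Py117 tumour 2 or Py117 tumour 4.

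Xcl1 rose by 2.53 ± 0.29 in Py8119 tumours over cultures (adjusted p = 7.75e-05), where 1 of 3 cultures was above background. With the other cultures taken at the background level, the means differed 4.81-fold. In Py117 it rose by 2.63 ± 0.20 (adjusted p = 4.11e-06) from cultures near background. The interaction was not called (-0.10, 95% confidence interval -0.89 to 0.69). Cxcr6 was called higher in Py8119 tumours than in cultures (1.22 ± 0.17, adjusted p = 0.000326). The groups did not overlap, though every array of both was below background. In Py117 Cxcr6 was at least 1.56-fold higher in tumours (adjusted p = 0.000201). Xcr1 was called higher in Py8119 tumours than in cultures (adjusted p = 0.00337), but the means of both were below background. In Py117 Xcr1 was called higher in tumours (adjusted p = 0.00768), and the means differed 1.23-fold with the cultures taken at the background level. Py117 tumour 2, at 5.12, was itself below that level. The call was lost without the 3 Py117 tumours high in adipocyte genes (adjusted p = 0.0555). Cxcr3 was not called in either line.

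**Figure D4:**
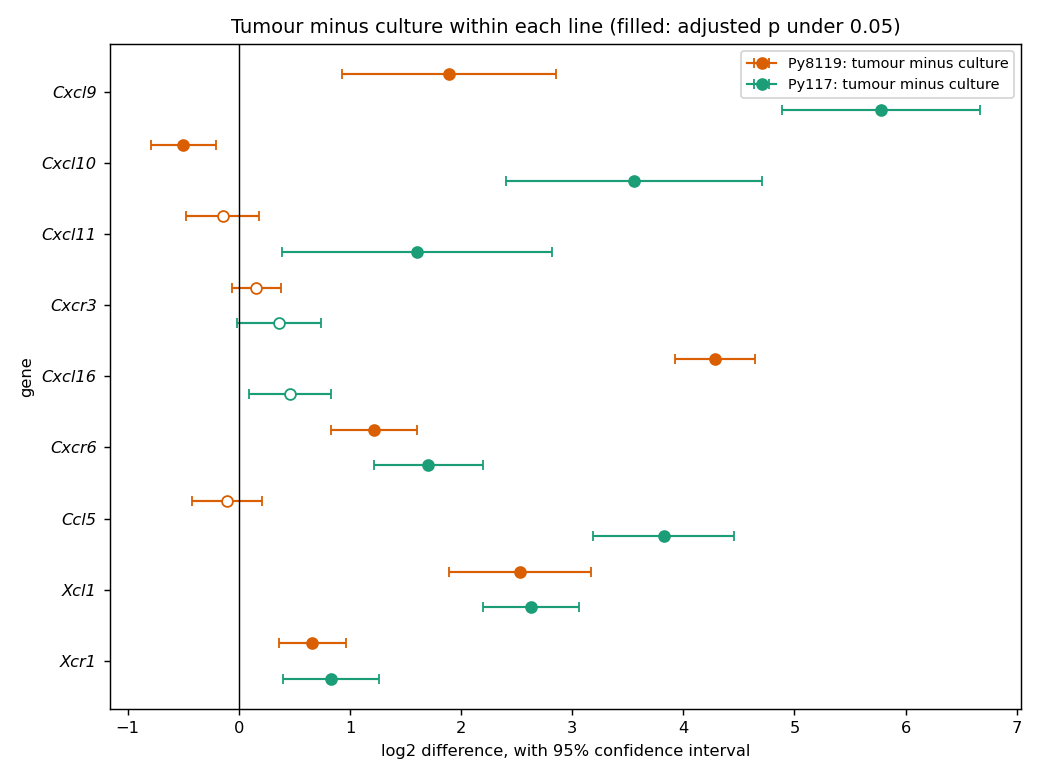
Log2 difference of tumour minus culture (points) with its 95% confidence interval (bars) for each of the 9 genes, in Py8119 and in Py117; filled points were called at an adjusted p under 0.05. The lines were far apart for Cxcl9, Cxcl10, Cxcl16 and Ccl5 and close together for Xcl1, Cxcr6, Xcr1 and Cxcr3.

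Single tumours differed within their groups. Tumour 3 was the highest for each of the ligands Cxcl9, Cxcl10, Cxcl11, Cxcl16, Ccl5 and Xcl1 among the mixed tumours and also among the Py117 tumours. For Xcl1 tumour 3 was the highest among the Py8119 tumours as well. The replicate numbers name tumours and nothing in the labels ties tumours of the same number together. Ifng, the gene of interferon-gamma itself, read 5.67, 5.5, 7.37, 6.06 and 5.99 in mixed tumours, 5.49, 5.38, 5.34, 5.5 and 5.64 in Py8119 tumours and 5.36, 5.51, 6.66, 6.08 and 5.45 in Py117 tumours. It was highest in the same 2 tumours and close to background in the Py8119 tumours, and it was not called between any tumour groups (Py8119 minus Py117: -0.34 ± 0.29, adjusted p = 0.420; mixed minus Py8119: 0.65 ± 0.29, adjusted p = 0.340).

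Igtp, an interferon-gamma-induced GTPase, read 8.86, 9.62, 10.82, 9.62 and 9.30 in mixed tumours, 6.77, 7.06, 7.38, 7.61 and 7.38 in Py8119 tumours and 9.64, 10.42, 11.81, 10.55 and 10.26 in Py117 tumours, with tumour 3 again highest in the mixed and Py117 groups. T cell genes did not peak in the same Py117 tumour: their mean was 6.25, 6.07, 6.43, 7.17 and 6.90 in Py117 tumours 1 to 5, and tumour 4 was also the highest for Cxcr3, Cxcr6 and Xcr1. Among mixed tumours the T cell mean was highest in tumour 3, at 6.52. The mean over 13 NK and cytotoxic genes was 6.08, 6.08, 6.96, 6.91 and 6.48 in Py117 tumours 1 to 5. It was highest in tumour 3 there and in mixed tumour 3, at 7.09. The NK marker Ncr1 was highest in mixed tumour 3 and in Py117 tumour 4. Adipocyte genes averaged 8.52, 6.34, 6.39, 7.78 and 8.57 in Py117 tumours, against at most 6.31 in mixed and 6.43 in Py8119 tumours, and Py117 tumour 1, among the highest for them, was the lowest Py117 tumour for Cxcl9, Cxcl10 and Cxcl11. Without the 3 Py117 tumours high in adipocyte genes, the Py8119 minus Py117 difference was -4.75 for Cxcl9, -2.80 for Cxcl10 and -2.07 for Cxcl11, all called. Mixed minus Py117 was then -0.76 for Cxcl9, -0.62 for Cxcl10 and -0.93 for Cxcl11, none called (adjusted p = 0.184, 0.271 and 0.106), and for Cxcl10 the sign differs from that over all tumours.

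**Figure D5:**
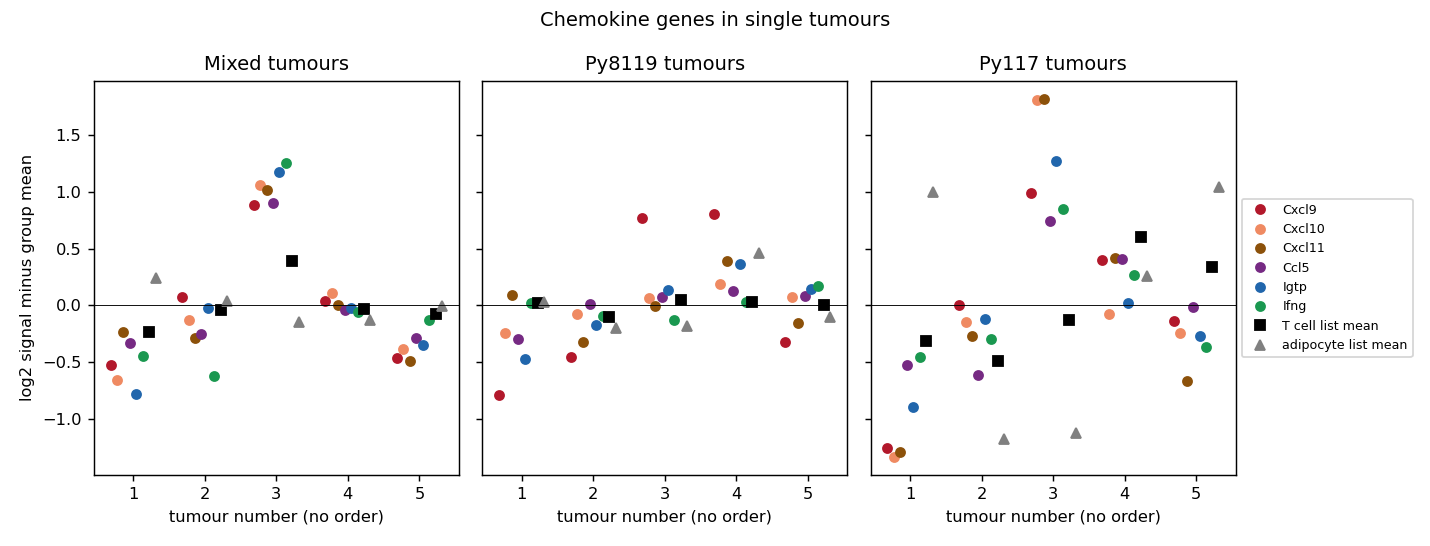
Log2 signal minus the mean of the group's 5 tumours, for Cxcl9, Cxcl10, Cxcl11, Ccl5, Igtp and Ifng (circles) and for the means of the T cell list (squares) and adipocyte list (triangles), by tumour number within each group. Tumour 3 was highest for the 6 genes in the mixed and in the Py117 group, while the T cell mean of the Py117 group was highest in tumour 4. Py8119 tumours were spread less than either other group for each of these genes but Cxcl9.

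Genes of the interferon-gamma pathway were counted beside their inducible ligands. Of 15 measured genes of that list, 10 were lower in Py8119 than in Py117 tumours and none higher, led by Igtp (-3.30 ± 0.35), the peptide transporter gene Tap1 (-2.63 ± 0.25) and the GTPase gene Irgm1 (-2.36 ± 0.29). In mixed tumours 6 were higher than in Py8119 tumours, led by Igtp (2.40 ± 0.35), Irgm1 (1.64 ± 0.29) and Tap1 (1.61 ± 0.25). Against Py117 tumours 1 was higher, the transcription factor gene Irf1 (0.87 ± 0.22), and 4 were lower, led by Irf9 (-1.18 ± 0.11), Tap1 (-1.02 ± 0.25) and the kinase gene Jak1 (-0.98 ± 0.14). Of all genes, 16.5% were lower in Py8119 than in Py117 tumours and 1.61% higher in mixed than in Py8119 tumours. In mixed against Py117 tumours 19.2% of all genes were higher and 16.9% lower. The median over the list was -1.07 for Py8119 minus Py117, -0.36 for mixed minus Py117 and 0.65 for mixed minus Py8119 tumours, against 0.01, -0.03 and -0.03 over all genes.

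Of 7 genes that process or clear chemokines, 4 were called lower in Py8119 than in Py117 tumours: Dpp4 (-2.08 ± 0.18), whose protease trims CXCL9, CXCL10 and CXCL11, Adam10 (-0.83 ± 0.09) and Adam17 (-0.43 ± 0.09), which release CXCL16, and the decoy receptor gene Ackr1, whose mean was below background in both groups. The same 4 were lower in mixed than in Py117 tumours, Dpp4 by -1.62 ± 0.18 and Adam10 by -0.65 ± 0.09, and none of the 7 was called between mixed and Py8119 tumours. Of all genes, 16.5% were lower in Py8119 than in Py117 tumours and 16.9% lower in mixed than in Py117 tumours. Ccr1, a receptor of CCL5 on monocytes and macrophages, was higher in Py8119 than in Py117 tumours (2.30 ± 0.17) and higher in mixed than in Py117 tumours (2.22 ± 0.17). Ccr3, which also encodes a CCL5 receptor, was not called between any tumour groups.

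Other chemokines that attract lymphocytes were called in both directions. Of 12 measured, 4 were higher in Py8119 than in Py117 tumours, where 21% of all genes were, with Ccl17 (2.08 ± 0.45), a ligand of CCR4, Cxcl12 (1.52 ± 0.14), the ligand of CXCR4, and Cx3cl1 (1.00 ± 0.16) the furthest, and 3 were lower: Cxcl13 (-0.58 ± 0.18), Ccl1 (-0.34 ± 0.09), whose mean was below background in both groups, and Ccl28 (-0.31 ± 0.09). Between mixed and Py8119 tumours none of the 12 was called. Of 9 other receptor genes, Cx3cr1 was higher in Py8119 than in Py117 tumours (1.38 ± 0.17), and Cxcr4 (-0.98 ± 0.19) and Ccr8 (-0.95 ± 0.18) were lower, with the Py8119 mean of Ccr8 at 5.2, below background. Ccr4 was also called lower, but every array of both groups was below background for it. Of all genes, 21% were higher and 16.5% lower between these 2 groups. None of these 9 was called between mixed and Py8119 tumours, again near the share over all genes.

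Markers of the cells that make or follow these chemokines moved as well, and their part in the chemokine differences was not tested. All 15 measured T cell genes were called lower in Py8119 than in Py117 tumours, though Ubash3a was below background on every array of both groups and Themis had means below it in both. The others included Cd3g at -2.24 ± 0.32, Cd8b1 at -1.61 ± 0.24 and Cd3e at -1.58 ± 0.27. Against Py117 tumours, mixed tumours had 4 of the 15 lower, with Cd4 (-0.93 ± 0.21) the furthest, and against Py8119 tumours 1 higher, Cd3g (1.66 ± 0.32). Of all genes, 16.5% were lower in Py8119 than in Py117 tumours. In mixed tumours 16.9% of all genes were lower than in Py117 tumours and 1.61% higher than in Py8119 tumours. The mean over the T cell list ran between 5.90 and 6.52 in mixed, 5.45 and 5.60 in Py8119 and 6.07 and 7.17 in Py117 tumours.

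Of 13 NK and cytotoxic genes, 5 were lower in Py8119 than in Py117 tumours, led by Klrk1 (-1.23 ± 0.26) and Nkg7 (-1.13 ± 0.21), and 2 were higher in mixed than in Py8119 tumours, Klrk1 (1.35 ± 0.26) and Fasl (0.59 ± 0.14). Their mean ran between 6.37 and 7.09 in mixed, 5.79 and 6.12 in Py8119 and 6.08 and 6.96 in Py117 tumours. Of 8 genes of cross-presenting dendritic cells, the cells that carry XCR1, 4 were lower in Py8119 than in Py117 tumours. In mixed tumours 1 of the 8 was higher and 2 lower than in Py117 tumours, and none was called against Py8119 tumours. Of all genes, 16.5% were lower between the single-line tumours. In mixed tumours 19.2% of all genes were higher and 16.9% lower than in Py117 tumours, and 1.61% were higher than in Py8119 tumours. So the mixed counts of these 8 genes lie near the shares over all genes. Clec9a was not analysed here. The carcinoma cells themselves gave signal for some of this list: Tlr3 averaged 7.55 in Py8119 cultures and 9.92 in Py117 cultures, Cadm1 9.46 and 8.67 in the Py8119 and Py117 cultures, and Naaa 9.09 in Py8119 and 8.45 in Py117 cultures. The mean over the list ran between 7.79 and 8.16 in mixed, 7.49 and 7.66 in Py8119 and 7.95 and 8.39 in Py117 tumours. Of 12 macrophage genes, 8 were higher and 1 lower in Py8119 than in Py117 tumours, where 21% and 16.5% of all genes were, and none was called between mixed and Py8119 tumours. Their mean ran between 10.28 and 10.56 in mixed, 10.23 and 10.56 in Py8119 and 9.73 and 10.08 in Py117 tumours. Endothelial and fibroblast genes also differed: all 8 endothelial genes were lower in Py8119 than in Py117 tumours, with a median of -1.69, and of 8 fibroblast genes 7 were lower and 1 higher, with a median of -1.49. In mixed tumours the same counts were lower and higher against Py117 tumours, and none of either list was called against Py8119 tumours. B cell genes gave no call between mixed tumours and either other group, and Cd79a and Ms4a1 were below background in every group.

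By the closeness of their values over the 21 arrays, each centred on its mean, the genes most like Cxcl9 were Igtp, Iigp1 and Irgm2, with root mean square differences of 0.680, 0.744 and 0.749 against a spread of Cxcl9 itself of 2.67. Those most like Cxcl10 were Irgm1, Slamf8 and Ccl5 (0.572, 0.582 and 0.596), and those most like Cxcl11 were Ubd, Gbp11 and Calhm6 (0.337, 0.402 and 0.406). Cxcr6 was nearest to Cd226, Itgal and Il2ra (0.304, 0.310 and 0.345), all genes of lymphocyte surface proteins. Xcl1 was nearest to Cd48, Gzma and Il10ra (0.399, 0.423 and 0.434), and Ccl5 to Bst2, Cxcl10 and Sema7a, of which Bst2 was closest at 0.561. Cxcl16 was nearest to Trp53i11, Fyb and Mme (0.457, 0.511 and 0.546), and Cxcr3 to Cebpg, Slc37a1 and Syap1 (0.132, 0.145 and 0.148). The members' own spreads were 1.45 for Cxcl10, 0.881 for Cxcl11, 0.916 for Cxcr6, 1.42 for Xcl1, 1.34 for Ccl5, 1.63 for Cxcl16 and 0.253 for Cxcr3. The distances between genes include the step between cultures and tumours, which many such genes share.

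Cxcl9, Cxcl10 and Cxcl11 lie close together on chromosome 5 in the RefSeq annotation, where Art3 overlaps Cxcl10 and Cxcl11, Sdad1 and Naaa come before Cxcl9, and Nup54 comes after Cxcl11. These 4 neighbours were looked up after the data were seen. Art3 was lower in Py8119 than in Py117 tumours (-1.05 ± 0.16) and Nup54 higher (0.66 ± 0.09), and between mixed and Py8119 tumours, where Cxcl9 and Cxcl10 were higher, neither was called (-0.01 ± 0.16 for Art3 and -0.09 ± 0.09 for Nup54). Naaa was higher in mixed than in Py117 tumours (0.62, adjusted p = 0.0244); against Py8119 tumours its groups did not overlap, and the difference of 0.78 ± 0.21 missed the threshold (adjusted p = 0.0718). Sdad1 was not called in any tumour comparison. Cxcl16 overlaps Zmynd15 and Cxcr6 overlaps Fyco1 in the same annotation; whether the probes read the overlapping genes was not tested.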

How the data were processed

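The deposited values are log2 signals. Per the submitters' processing notes the authors used RMA, and limma is named there too; versions, background handling and hybridization batches are not given in the sources used here. Of 41345 probe sets, 23521 had a single symbol in the platform annotation, 1814 several and 16010 none. For the 1082 genes with several single-symbol probe sets, the one with the highest mean over 21 arrays was used, which gave 22180 genes. The labels call the samples biological replicates and do not say more of their origin, and the number of arrays limits the precision.

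Differences were fitted with limma 3.58.1 in R 4.3.3 (lmFit, eBayes): 6 culture arrays, 15 tumour arrays for the 3 tumour comparisons, 8 arrays for each line's tumour and culture, and 16 for the interaction. The p-values were adjusted by Benjamini-Hochberg over all genes. The members, gene lists and tests were chosen with earlier results of these data known. All members are named in every comparison; from the other lists up to 3 called genes in each direction are named, with Ifng, Adam10, Dpp4, Epcam and defining markers, and for each member called between tumours the 3 nearest genes, predicted genes left out. Alternatives were quantile normalization, median centring, leaving out dim genes, the mean of probe sets, a trended robust prior, array weights, a fit of all arrays, a replicate block, an adipocyte covariate, and leaving out each array or, after the data were seen, 3 Py117 tumours with high adipocyte genes. The fits were tested on simulated data with 1 spread per gene for all groups. In them 67 of 22180 genes were changed by 0.5 and 67 by 1. A log2 change of 0.5 was recovered for 2.99% of changed genes in culture, 10.4% for the interaction and 44.8% to 53.7% between tumour groups. For tumour against culture this was 22.4% in Py8119 and 31.3% in Py117. A change of 1 was recovered for 73.1% to 94.0%. The real comparisons called between 394 and 8299 genes, and the adjusted threshold depends on that number, so these rates may not hold for them. A gene not called may still differ. Plots come from matplotlib 3.10.9 (Python 3.11.15).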

Additional observations from a re-analysis of the deposited data

Results flagged for a closer look

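Ccl5 in mixed tumour 3, at 11.14, lay far above the other mixed tumours, of which the nearest read 10.20; the gap was 0.764 of the group's range. Ccl5 in Py8119 tumour 1, at 8.84, lay below the other Py8119 tumours, of which the nearest read 9.15, a gap of 0.733 of the range. Chance marks about 1 in 20 groups in this way, and 27 groups were examined (9 genes in 3 tumour groups). Without mixed tumour 3 or without Py8119 tumour 1, the difference in Ccl5 between mixed and Py8119 tumours was no longer called (adjusted p = 0.0685 and 0.0849).

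The step from culture to tumour differed between the lines by the limma interaction for 4 ligands, given as the Py8119 step minus the Py117 step: -3.89 for Cxcl9, -4.05 for Cxcl10, -3.93 for Ccl5 and 3.82 for Cxcl16. Each kept its call without any single array, with adjusted p at most 0.00234 for Cxcl9, 0.000715 for Cxcl10, 6.89e-06 for Ccl5 and 3.24e-07 for Cxcl16.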

How the results depend on the processing

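Of 562 gene values under alternatives other than leaving out an array, 536 kept their side of the threshold, 10 lost the call, 16 gained one and none turned round with a call. For 747 with an array left out the counts were 721, 14, 12 and 0. Values not called in either fit count as kept even where their sign changed. An example is Cxcl10 in mixed minus Py117 tumours, at 0.21 in the report and -0.83 with the adipocyte covariate. For mixed minus Py117 tumours the number of the 9 genes called, 1 in the report, was 0 with the adipocyte covariate, 0 without the 3 Py117 tumours with high adipocyte genes and 1 to 3 without any single array (3 without Py117 tumour 2, 2 without Py117 tumour 1 or mixed tumour 3). For mixed minus Py8119 tumours the 394 genes called were 907 with array weights and 270 to 599 without any single array (599 without Py117 tumour 3), and the 5 members called were 3 to 6 (3 without mixed tumour 3 or Py8119 tumour 1). The cause was not tested. With the replicate block, members called were 4 in culture, 7 between single-line tumours, 1 and 5 for mixed tumours against Py117 and Py8119, 4 and 7 for tumour against culture in Py8119 and Py117, and 4 for the interaction; in Py8119 tumours against culture, Cxcl9 (1.73, adjusted p = 0.0754) and Cxcl10 (adjusted p = 0.0503) lost their calls, and Cxcl11 gained one in culture (adjusted p = 0.0492). Whether the numbers pair the samples is not known. Correlations of same-numbered deviations ran from -0.234 to 0.257, and without values for different numbers beside them they cannot decide it. Centring arrays on their medians moved the median of all genes to 0.14 in culture, 0.11 between single-line tumours, and -0.26 and -0.25 for tumour against culture in Py8119 and Py117. The share of calls that were higher then went to 70.4% in culture (54.0% in the report), 68.0% (56.0%) between single-line tumours, 79.5% (90.9%) for mixed against Py8119 tumours, and 20.7% (43.8%) and 22.6% (40.5%) for tumour against culture in Py8119 and Py117; with it Cxcl11 was called in culture (adjusted p = 0.00928) and no longer in Py117 tumours against culture (adjusted p = 0.0510). Without the same 3 Py117 tumours the call of Xcr1 in Py117 tumours against culture was lost (adjusted p = 0.0555) and the interaction of Cxcl11 was called (adjusted p = 0.00513). Signals near background limit Cxcr6, Xcr1 and Cxcl11.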
